A study of Mus musculus with 22 samples.

Results

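The Rab GTPase genes of vesicle trafficking were taken as the protein-coding genes of the RefSeq mm10 gene table whose symbol is Rab followed by a number and at most a letter or a letter with a number. There were 59 of them among 21631 protein-coding genes on 20 chromosomes. Genes named for Rab partners, such as Rab11fip3, were not members. In peak lists of CREB1 and C/EBP beta from mpkCCD cells, a Rab gene counted as near a peak when a peak centre lay within 5000 bp of either gene end. Those peak positions chose what is described, so counts near peaks are given without a test.

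Rab proteins are small GTPases that mark the membranes of the secretory and endocytic routes. In the GTP form each Rab recruits effectors that move, tether or fuse vesicles, exchange factors and GTPase activating proteins switch it on and off, and a prenyl anchor holds it on the membrane. In the collecting duct, vasopressin brings the water channel AQP2 from vesicles to the apical membrane, and Rab11 and Rab5 proteins are known on the recycling and endocytic routes of this channel. CREB1 is a transcription factor activated downstream of cAMP, the second messenger of the V2 receptor, and C/EBP beta is a related leucine zipper factor.

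mpkCCD clone 11 is a cultured line of mouse cortical collecting duct cells, and all values come from this single clone. The groups were CREB1 immunoprecipitated after dDAVP (4 samples), CREB1 after vehicle (4), C/EBP beta after dDAVP (2) and C/EBP beta after vehicle (2), with 10 input libraries. dDAVP, a vasopressin analog selective for V2 receptors, was given at 0.1 nM for 30 min. All groups were grown to confluence on permeable supports in medium with insulin, dexamethasone, triiodothyronine and epidermal growth factor, and were then kept without serum and hormones before treatment. Each group had a single deposited peak list, so no value below has a replicate error, the read depth is unknown, and no test of the treatment could be made. Peak lists hold no expression values, so the cell type was not checked against marker genes.

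The lists differed in length, with 406 CREB1 peaks after dDAVP and 785 after vehicle, and 2401 C/EBP beta peaks after dDAVP and 209 after vehicle. Whether a factor bound below the calling threshold at genes without a listed peak was not measured. The CREB1 lists held 0 peaks on the X chromosome, where 4 Rab genes lie (Rab9, Rab9b, Rab33a and Rab39b).

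After vehicle 9 CREB1 peaks lay within 500 bp of the start of a Rab gene, and 8 of them covered part of a promoter window that held letters of the cAMP response element (CRE). The CRE is the DNA element that CREB1 binds. RefSeq promoter windows of GRCm38.p6 run from 250 bases before to 50 bases after a gene start and were at hand for 48 of the 59 Rab genes, as 60 windows. Within 500 bp of a gene end, CREB1 vehicle peaks were near 15.3% of Rab genes and 3.72% of all genes. Of all genes of known strand near such a peak, 86.3% had it nearer the start than the far end. Of all windows under such a peak, 85.5% held the short CRE core TGACG, so both traits are common across the list. The stretches that follow show CRE matches inside CREB1 peaks at 7 Rab genes, read along each gene's strand, 5′ to 3′. Capitals mark the palindrome with a free letter, TGACGTNA on either strand, or the short core TGACG on either strand, which the longer motif contains.

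Rab5a, chr17:53479186-53479233, plus strand: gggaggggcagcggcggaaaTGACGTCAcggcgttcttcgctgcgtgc
Rab6a, chr7:100607497-100607544, plus strand: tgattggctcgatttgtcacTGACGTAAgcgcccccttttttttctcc
Rab3a, chr8:70754644-70754691, plus strand: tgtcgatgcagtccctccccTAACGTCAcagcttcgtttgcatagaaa
Rab11b, chr17:33760649-33760696, minus strand: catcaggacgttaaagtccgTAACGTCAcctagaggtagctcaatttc
Rab13, chr3:90213676-90213720, plus strand: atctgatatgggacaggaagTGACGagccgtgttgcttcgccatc
Rab2b, chr14:52279550-52279594, minus strand: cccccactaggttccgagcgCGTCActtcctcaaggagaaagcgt
Rab5b, chr10:128696454-128696498, minus strand: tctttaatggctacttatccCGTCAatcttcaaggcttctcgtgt

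Of these windows, the one of Rab5a alone held the full palindrome TGACGTCA, while Rab6a, Rab3a and Rab11b held versions that depart from it at the free letter. The whole windows of Rab5a and Rab11a are shown because Rab5 and Rab11 proteins act on the route of AQP2. The Rab5a window also held 2 short cores far upstream. The Rab11a window held 2 short cores, one on each side of the gene start.

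Rab5a promoter, chr17:53478984-53479283, plus strand: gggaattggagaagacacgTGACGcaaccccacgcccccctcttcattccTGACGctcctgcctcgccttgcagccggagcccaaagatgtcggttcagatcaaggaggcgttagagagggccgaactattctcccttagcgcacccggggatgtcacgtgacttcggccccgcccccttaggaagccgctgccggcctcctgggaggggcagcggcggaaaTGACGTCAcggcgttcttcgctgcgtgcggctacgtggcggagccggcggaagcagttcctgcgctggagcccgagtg
Rab11a promoter, chr9:64737707-64738006, minus strand: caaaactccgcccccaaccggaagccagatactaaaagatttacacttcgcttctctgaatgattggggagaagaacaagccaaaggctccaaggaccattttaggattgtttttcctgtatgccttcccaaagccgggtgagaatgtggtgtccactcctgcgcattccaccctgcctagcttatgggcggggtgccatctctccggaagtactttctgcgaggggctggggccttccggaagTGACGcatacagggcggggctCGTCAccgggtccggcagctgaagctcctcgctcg

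Across the family, CREB1 peaks after dDAVP were near Rab5a, Rab40c and Rab40b, 3 of 59 Rab genes (5.08%), beside 2.67% of all protein-coding genes. After vehicle they were near 10 of 59 (16.9%), beside 5.05% of all genes. The number near a CREB1 peak in at least 1 treatment was also 10 (16.9%, beside 5.09% of all genes). The 10 were Rab13, Rab11a, Rab5a, Rab6a, Rab2b, Rab3a, Rab11b, Rab5b, Rab40c and Rab40b. On the autosomes alone the counts were 3 of 55 Rab genes after dDAVP (5.45%, beside 2.79% of autosomal genes) and 10 of 55 after vehicle (18.2%, beside 5.28%). C/EBP beta peaks were near Rab5b, Rab1a and Rab32 after dDAVP (3 of 59, 5.08%, beside 5.01% of all genes) and near 0 of 59 after vehicle (beside 0.513%). In all, 12 of 59 Rab genes (20.3%) were near a peak of any list, beside 9.39% of all genes, and 47 were not.

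**Figure D1:**
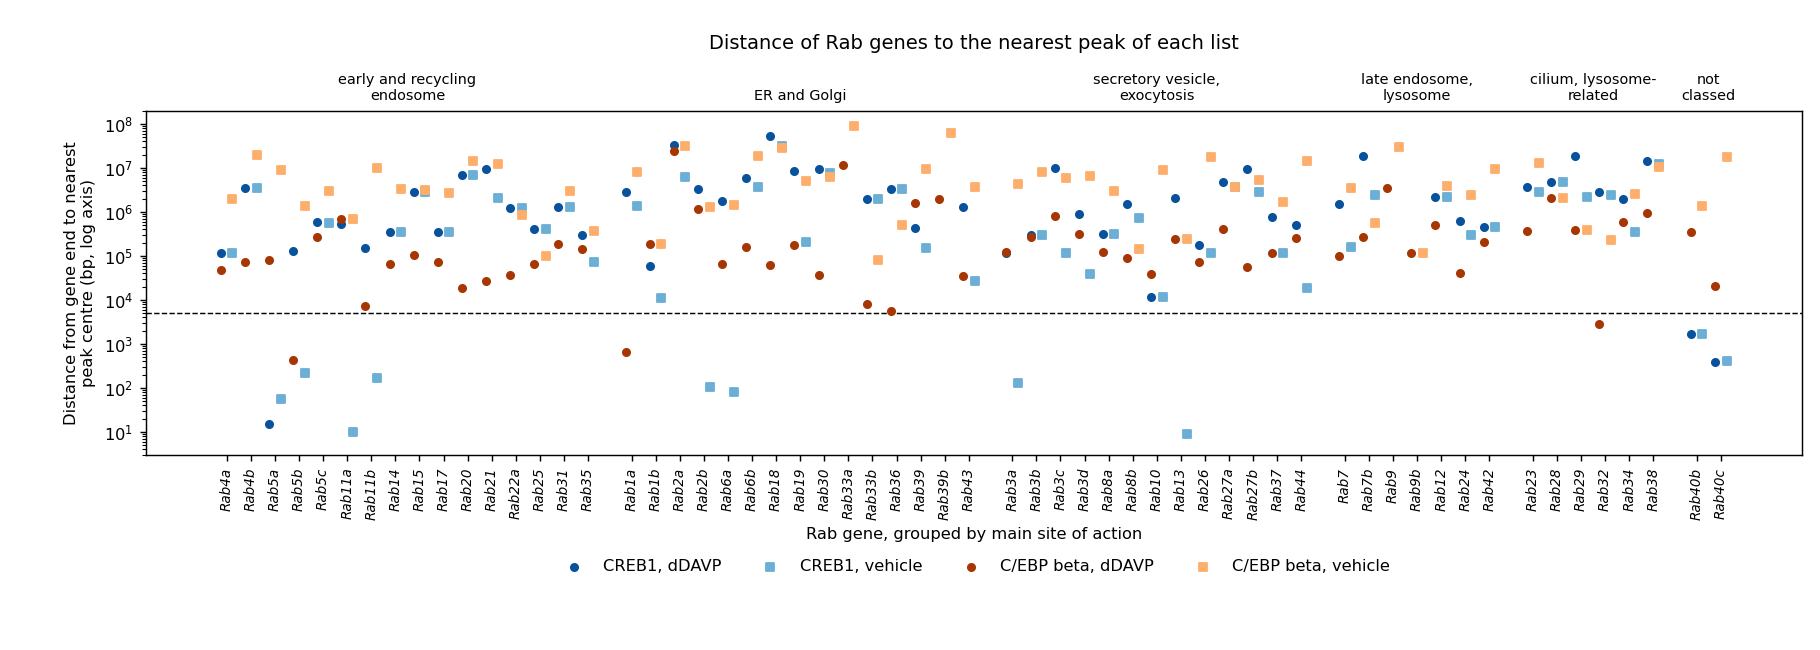
Distance from the nearer gene end to the nearest peak centre (bp, log axis) for each of the 59 Rab genes and each of the 4 peak lists, with genes grouped by main site of action and a dashed line at 5000 bp. Points under the line are the 10 genes near a CREB1 peak after vehicle, the 3 near one after dDAVP and the 3 near a C/EBP beta peak after dDAVP. The 4 Rab genes on the X chromosome have no CREB1 points, since the CREB1 lists hold no peak there.

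The values just inside and just outside the limit were far apart for CREB1. The farthest member inside was Rab40b, at 1667 bp after dDAVP and 1680 bp after vehicle, and the next were Rab10 at 11628 bp after dDAVP and Rab1b at 10758 bp after vehicle. For C/EBP beta after dDAVP, Rab32 was inside at 2791 bp and Rab36 just outside at 5542 bp, followed by Rab11b at 7128 bp and Rab33b, a Golgi Rab with a role in autophagy, at 8091 bp. The Rab36 and Rab33b peaks were closer to other genes, 270 bp from the start of Bcr and 110 bp from the far end of Naa15. For CREB1 the autosomal Rab genes outside the limit lay 10758 to 30852594 bp from a peak (median 717078 bp), and for C/EBP beta the 52 autosomal Rab genes outside lay 5542 to 24653692 bp away (median 123080.5 bp). Among all 59 Rab genes, 34 had no peak of any list within 50000 bp. The share of all genes for the 4 lists together is not given at that distance. For C/EBP beta after dDAVP alone, 15 Rab genes (25.4%) were within 50000 bp of a peak, beside 18.9% of all genes. At 500 bp, CREB1 peaks were near 2 Rab genes after dDAVP (3.39%, beside 2.00% of all genes) and near 9 after vehicle (15.3%, beside 3.72%). At 50000 bp they were near 4 after dDAVP (6.78%, beside 6.97%) and near 15 after vehicle (25.4%, beside 12.5%).

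**Figure D2:**
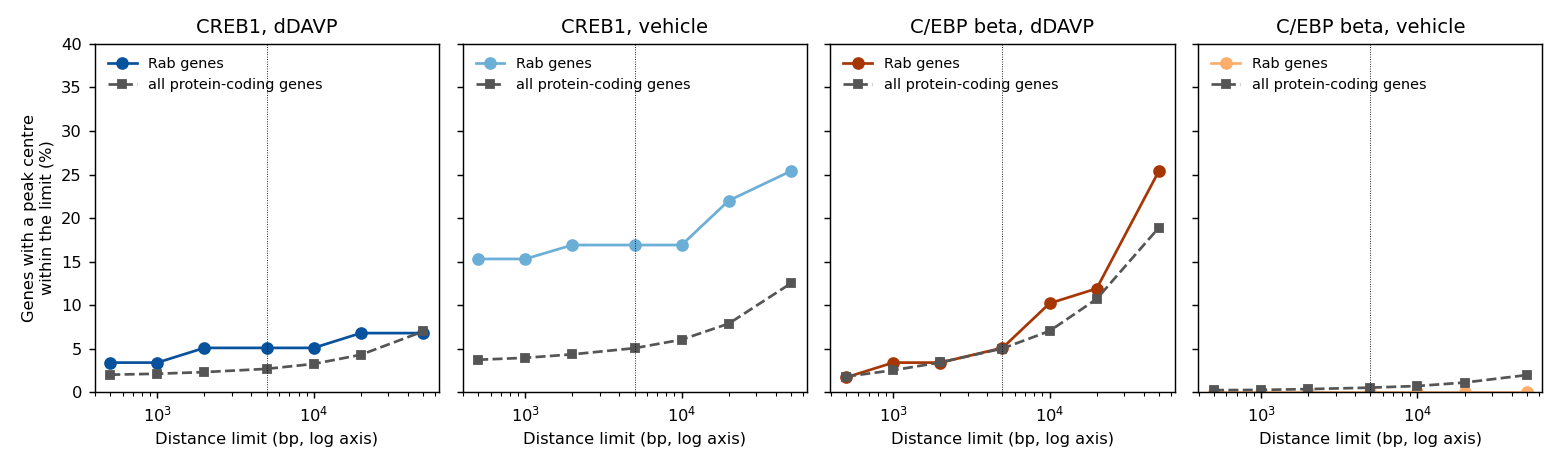
Share of genes (%) with a peak centre within a distance limit (bp, log axis) for the 59 Rab genes (coloured circles) and for all 21631 protein-coding genes (grey squares), 1 panel per peak list, with a dotted line at 5000 bp. For CREB1 after vehicle the Rab share is 15.3% at 500 bp and 25.4% at 50000 bp, against 3.72% and 12.5% of all genes, while for C/EBP beta after dDAVP both shares are near 5% at 5000 bp.

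Rab5 GTPases control the fusion of early endosomes. Rab5a had the CREB1 site found in both treatments closest to a gene start. Its peak spanned 253 bp after dDAVP, from 53479093 to 53479345 on chromosome 17, and 369 bp after vehicle, from 53478995 to 53479363. Peak centres lay 15 bp before the start after dDAVP and 55 bp before it after vehicle, and the shorter peak lay inside the longer one. The full CRE began at position -28 from the start and was inside both peaks. The 2 short cores upstream were covered by the vehicle peak and not by the dDAVP peak.

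Rab5b, another Rab5 gene, was the single Rab gene within 5000 bp of peaks of both factors (1 of 59, 1.69%). Of all 21631 genes, 1101 were near a CREB1 peak, 1084 near a C/EBP beta peak and 2032 near a peak of any list, so some were near both. A single gene is too few to set the Rab family apart from them. A C/EBP beta peak after dDAVP, from 128696632 to 128696790 on chromosome 10, was 443 bp before an annotated start. The CREB1 peak, listed after vehicle alone, ran from 128696385 to 128696630 with its centre 239 bp before that start. A single base separated these 2 peaks, and their centres were 204 bp apart. The C/EBP beta peak was 159 bp wide with a deposited score of 68, which ranked 2290 of 2401, so it stood near the bottom of its list. Pmel, a melanosome gene, and Cdk2, a cell cycle kinase, also had an end within 5000 bp of both peaks. The remaining Rab5 gene, Rab5c, had no peak within 50000 bp, with the nearest at 270153 bp (C/EBP beta after dDAVP).

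Rab11 GTPases act on the recycling endosome, from which apical cargo returns to the surface. CREB1 peaks stood at both Rab11a and Rab11b after vehicle and at neither after dDAVP. The Rab11a peak was 233 bp wide, on chromosome 9 from 64737630 to 64737862, with its centre 10 bp inside the gene. The Rab11b peak was 240 bp wide, on chromosome 17 from 33760539 to 33760778, with its centre 172 bp before the start. By width they ranked 610 and 585 of 785 in the vehicle list, whose median was 290 bp. Rab11b also held a C/EBP beta peak after dDAVP inside the gene, 10874 bp past its start, with a score of 472 against a list median of 197.

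Rab25, the epithelial relative of Rab11, had a full CRE at position -85 from its start and no CREB1 peak nearby. The nearest CREB1 peak was 403586 bp away after dDAVP and 403592 bp after vehicle. It was the single Rab gene besides Rab5a whose window held the full palindrome, so 2 of 48 Rab genes with a window had one (4.17%), beside 2.58% of all 17274 genes with a window. In the class of early and recycling endosome Rabs, 1 of 16 genes was near a CREB1 peak after dDAVP (6.25%, beside 2.67% of all genes) and 4 of 16 after vehicle (beside 5.05%).

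Among Rab genes of the ER and the Golgi, CREB1 peaks after vehicle stood at Rab6a, a regulator of retrograde Golgi traffic, and at Rab2b, which acts between ER and Golgi. The Rab6a peak was 182 bp wide, ranked 757 of 785, and its centre lay 93 bp before an annotated start on chromosome 7. The Rab2b peak was 254 bp wide, with its centre 107 bp before the start on chromosome 14 and 356 bp from the start of Tox4. The dDAVP list held neither. Rab1a, which drives ER to Golgi transport, had a C/EBP beta peak after dDAVP on chromosome 11 from 20200632 to 20200891. That peak lay 651 bp before the gene start and had a score of 230, above the list median of 197 and ranked 1014 of 2401. In this class 0 of 15 genes were near a CREB1 peak after dDAVP (beside 2.67% of all genes) and 2 of 15 after vehicle (13.3%, beside 5.05%). The 15 include Rab33a and Rab39b on the X chromosome, where the CREB1 lists held no peak.

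Among Rab genes of secretory vesicles, CREB1 peaks after vehicle stood at Rab13, known at tight junctions and on vesicles to the cell surface, and at Rab3a, a Rab of regulated exocytosis. The Rab13 peak was 255 bp wide, on chromosome 3 from 90213597 to 90213851, with its centre 9 bp inside the gene and 76 bp from the start of the ribosomal protein gene Rps27. The Rab3a peak was 294 bp wide, on chromosome 8 from 70754428 to 70754721, with its centre 129 bp before the start. The dDAVP list held neither of these as well, and the class had 0 of 13 genes after dDAVP (beside 2.67% of all genes) and 2 of 13 after vehicle (15.4%, beside 5.05%).

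Rab40 proteins carry a SOCS box and serve as adaptors of ubiquitin ligases. Rab40b and Rab40c both had a CREB1 peak in both treatments. The Rab40c peak was 168 bp wide after dDAVP and 185 bp after vehicle, with centres 388 bp and 410 bp before the start on chromosome 17. The Rab40b peak was 327 bp wide after dDAVP and 366 bp after vehicle, and it lay past the far end of the gene, 33797 bp and 33810 bp from the gene start. An end of Wdr45b was 7 bp from its centre after dDAVP and 6 bp after vehicle, so Wdr45b, not Rab40b, was the nearest gene there.

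Rab32, which serves lysosome-related organelles, had a C/EBP beta peak after dDAVP 2791 bp inside the gene, 279 bp wide with a score of 67. That score ranked 2294 of 2401 and the list median was 197, so the peak stood near the bottom of its list. Its class of cilium and organelle Rabs had 0 of 6 genes near a CREB1 peak in either treatment, beside 5.09% of all genes. Rab genes of the late endosome and lysosome had 0 of 7 near a peak of any list, beside 9.39% of all genes, and with so few genes these counts of 0 lie at the background. Among the 7, Rab9 and Rab9b lie on the X chromosome, where the CREB1 lists held 0 peaks. Rab7, the main Rab of late endosomes, was 100900 bp from the nearest C/EBP beta peak after dDAVP. Rab18, a Rab of lipid droplets, was 63604 bp from a C/EBP beta peak after dDAVP. Rab3d, a Rab of secretory granules, was 904629 bp from a CREB1 peak after dDAVP and 37906 bp from one after vehicle.

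**Figure D3:**
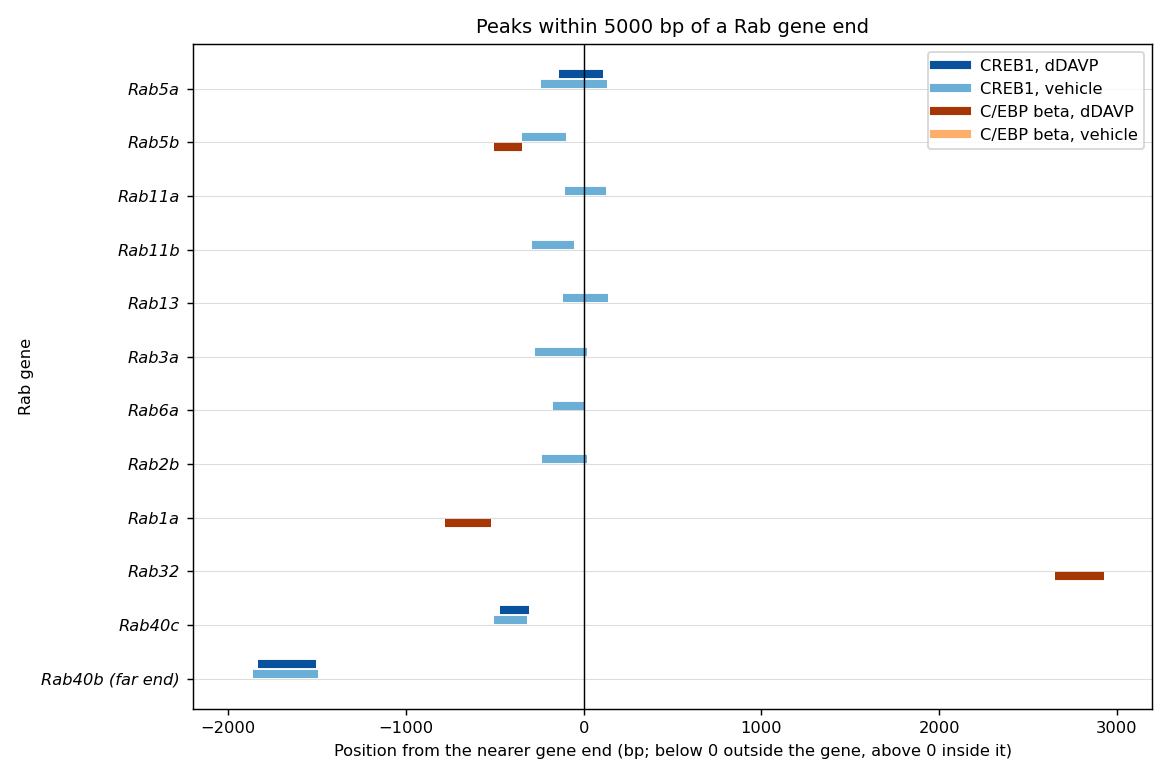
Peaks within 5000 bp of a Rab gene end, drawn to scale by distance from the nearer gene end (bp, below 0 outside the gene), for the 12 Rab genes near a peak. Bars are the deposited peak extents, coloured by list. CREB1 bars gather within 500 bp of the gene start except at Rab40b, where the bars of 327 and 366 bp lie past the far end, and no C/EBP beta vehicle bar appears.

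All 3 CREB1 peaks near Rab genes after dDAVP overlapped a vehicle peak, and 0 of the 3 C/EBP beta peaks after dDAVP did. In the whole lists 398 of 406 CREB1 dDAVP peaks (98.0%) and 209 of 2401 C/EBP beta dDAVP peaks (8.70%) overlapped a vehicle peak, so the Rab counts read as the lists do. Of the 10 Rab genes near a CREB1 vehicle peak, 3 were near a dDAVP peak and 7 were not, while of 1092 such genes in all, 568 (52.0%) were near a CREB1 peak in both treatments. Genes near a CREB1 peak in both treatments were 3 of 59 Rab genes (5.08%), beside 2.63% of all genes. The vehicle peaks of Rab5a and Rab40b, at 369 and 366 bp, were the widest of the 10, and that of Rab40c, at 185 bp, was among the narrowest. Among the 10 vehicle peaks the median width was 250 bp, and 3 exceeded the list's median of 290 bp. With the vehicle list reduced to its 406 widest peaks, the length of the dDAVP list, 3 Rab genes were near a peak (Rab3a, Rab40b and Rab5a), beside 2.69% of all genes. Treatment and list length differed together between the 2 CREB1 lists, so their parts in the counts of 3 and 10 cannot be told apart.

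Where a strand was known, CREB1 peaks were at the start of the Rab gene in 2 of 3 after dDAVP (66.7%, beside 86.6% of all genes near a peak) and in 9 of 10 after vehicle (beside 86.3%). C/EBP beta peaks after dDAVP were at the start in 3 of 3, beside 74.5% of all genes near a peak. The Rab gene was the nearest gene to its CREB1 peak in 2 of 3 cases after dDAVP and in 9 of 10 after vehicle. Another protein-coding gene had an end within 5000 bp of the peak in 1 of 3 cases after dDAVP and in 6 of 10 after vehicle, so these peaks count for both neighbours. For these counts of nearest and neighbouring genes, no share over all genes near a peak is given.

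The CRE matches were not used to choose the genes. CREB1 peaks overlapped 1 Rab window after dDAVP and 8 after vehicle, and all 8 held the short core TGACG. Over all genes, 362 of 402 windows under a CREB1 dDAVP peak and 666 of 779 windows under a vehicle peak (85.5%) held it. Within the 200 bases nearest the gene start the core stood in 5 of the 8 Rab windows (62.5%), beside 78.4% of all windows under a vehicle peak, so the order of the Rab share and the share of all such windows turned with the window length. The cores of Rab11b, Rab2b and Rab5b lie farther upstream than that shorter window. The core stood in 18 of the 52 other Rab windows (34.6%), in 21.4% of all windows without a CREB1 peak and in 23.8% of all 21045 windows. The longer motif TGACGTNA stood in 4 of the 8 Rab windows under a peak (50.0%) and in 1 of the 52 others (1.92%). Beside these stand 32.8% of all windows under a CREB1 peak, 2.35% of all windows without one and 3.49% of all windows. Within the 200 bases nearest the gene start it stood in 3 of the 8 (37.5%), beside 30.3% of all windows under a vehicle peak. The full palindrome TGACGTCA went the other way, in 1 of the 8 (12.5%) beside 23.5% of all windows under a vehicle peak. Every core in the 8 windows lay inside the CREB1 vehicle peak, at positions from -231 to 15 around the gene start.

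Base composition was measured in the same windows. The median GC content was 59.0% in the 8 Rab windows (51.3% to 65.3%), 62.3% in the other Rab windows, 61.3% in all windows under a CREB1 peak and 56.3% in all others. CG dinucleotides, which the core contains, had medians of 21.5 and 19.5 per window in the 2 Rab groups, and of 25 and 12 in all windows with and without a CREB1 peak. The part of base composition in the shares of matches was not tested. A match is a run of letters and not a measured site.

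**Figure D4:**
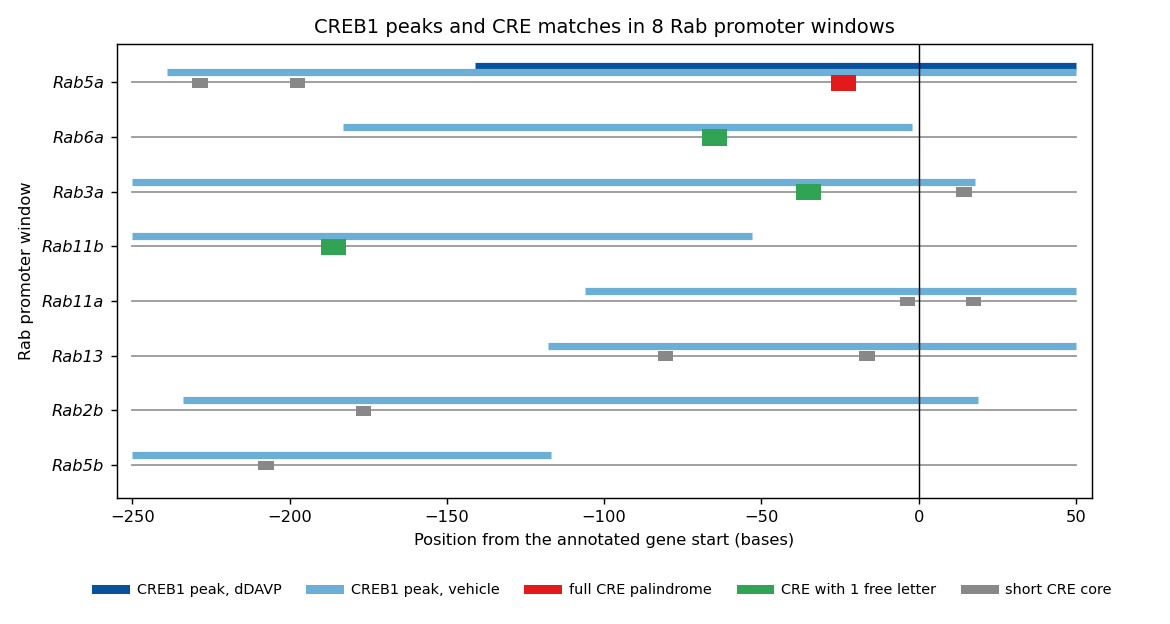
CREB1 peaks (bars, clipped to the window) and CRE matches (boxes) in the 8 Rab promoter windows that a CREB1 peak overlaps, by position from the annotated gene start (bases). The boxes lie under the vehicle bar of their gene, and the full palindrome at Rab5a alone also lies under the single dDAVP bar.

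For C/EBP beta the 2 motifs searched were TTGCNNAA and TGATGNAA, a core of the composite element of C/EBP and ATF proteins, on either strand. The C/EBP beta peaks near Rab genes overlapped 0 Rab windows, so the letters under them were not read. TTGCNNAA was in the windows of 4 of 48 Rab genes (8.33%, beside 11.8% of all genes with a window), and TGATGNAA in 2 of 48 (4.17%, beside 3.95%).

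The partners of Rab proteins were described with lists of genes chosen by function, with results of these data already known. After dDAVP and after vehicle, CREB1 peaks were near 1 and 1 of 36 exchange factor genes (2.78% each). That gene was Hps4, part of an exchange factor for Rab32 and Rab38, at 50 bp after dDAVP and 58 bp after vehicle. TBC domain genes include those of proteins that switch Rabs off. Of 35 TBC domain genes, 1 was near a CREB1 peak after dDAVP (2.86%, Tbc1d23) and 3 after vehicle (8.57%, Tbc1d22a, Tbc1d10a and Tbc1d23). Of 42 effector genes, Rab11fip3, which encodes a Rab11 effector, was the single one near a CREB1 peak, at 466 bp after dDAVP and 479 bp after vehicle (2.38% each). The 8 genes of Rab prenylation and recycling, such as the GDP dissociation inhibitor gene Gdi2, and the 9 exocyst genes had 0 near a peak of any list. Beside this stand 9.39% of all genes, and with so few genes these counts of 0 lie at the background.

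SNAREs are the proteins that fuse a vesicle with its target once Rabs and tethers have brought them together. SNARE genes and their regulators were near CREB1 peaks in 4 of 46 cases after dDAVP (8.70%) and in 10 of 46 after vehicle (21.7%). The closest after dDAVP were Scfd2 (21 bp), Stx5a (72 bp), which encodes a Golgi syntaxin, and Stxbp3 (134 bp). The closest after vehicle were Napa (6 bp), which encodes the SNARE adaptor alpha-SNAP, Scfd1 (15 bp), Scfd2 (31 bp) and Vamp3 (64 bp), a SNARE of recycling endosomes. Subunits of HOPS, CORVET and retromer, tethers and sorters that work with Rab5 and Rab7, had 0 of 13 after dDAVP and 4 of 13 after vehicle (30.8%): Vps18 (30 bp), Tgfbrap1 (84 bp), Vps11 (3679 bp) and Vps33a (4580 bp). These shares stand beside the 2.67% and 5.05% of all genes given above.

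For C/EBP beta after dDAVP, peaks stood near 3 of 36 exchange factor genes (8.33%), with Mon1a (50 bp), part of the Rab7 exchange factor, Sbf2 (482 bp) and Rab3ip (863 bp), which encodes the Rab8 exchange factor Rabin8. Such peaks were near 2 of 35 TBC domain genes (5.71%, Evi5l and Tbc1d15) and near 3 of 42 effector genes (7.14%, Optn, Unc13d and Plekhm1). SNARE genes had 7 of 46 (15.2%), with Gosr1 (8 bp), Vamp8 (36 bp), a SNARE of endosomes and regulated exocytosis, and Stx6 (53 bp) closest. HOPS, CORVET and retromer subunits had 2 of 13 (15.4%), Vps26a (524 bp) and Vps11 (3514 bp). After vehicle Vps11 was the single gene of these lists near a C/EBP beta peak, at 3516 bp. Beside these stand 5.01% of all genes after dDAVP and 0.513% after vehicle, and the shares of TBC domain and effector genes were near the background.

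Other GTPase families are set beside the shares of all genes, which for CREB1 were 2.67% after dDAVP and 5.05% after vehicle, while C/EBP beta had 5.01% after dDAVP. Arf and Arl GTPases, which act on coats and organelles, were near CREB1 peaks in 1 of 28 cases after dDAVP (3.57%, Sar1a at 53 bp) and in 3 of 28 after vehicle (10.7%, Arl4d, Sar1a and Arf1). For C/EBP beta after dDAVP the count was 5 of 28 (17.9%), with Arl1 closest at 113 bp. Ras family genes had 1 of 22 after dDAVP (4.55%, Rap2a) and 2 of 22 after vehicle (9.09%, Rheb and Rap2a) for CREB1, and 0 of 22 for C/EBP beta. Among 7 Rab-like genes, Rabl3 (81 bp) was near a CREB1 peak after vehicle (14.3%), and Rab44 is in that list as well as in the Rab family.

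**Figure D5:**
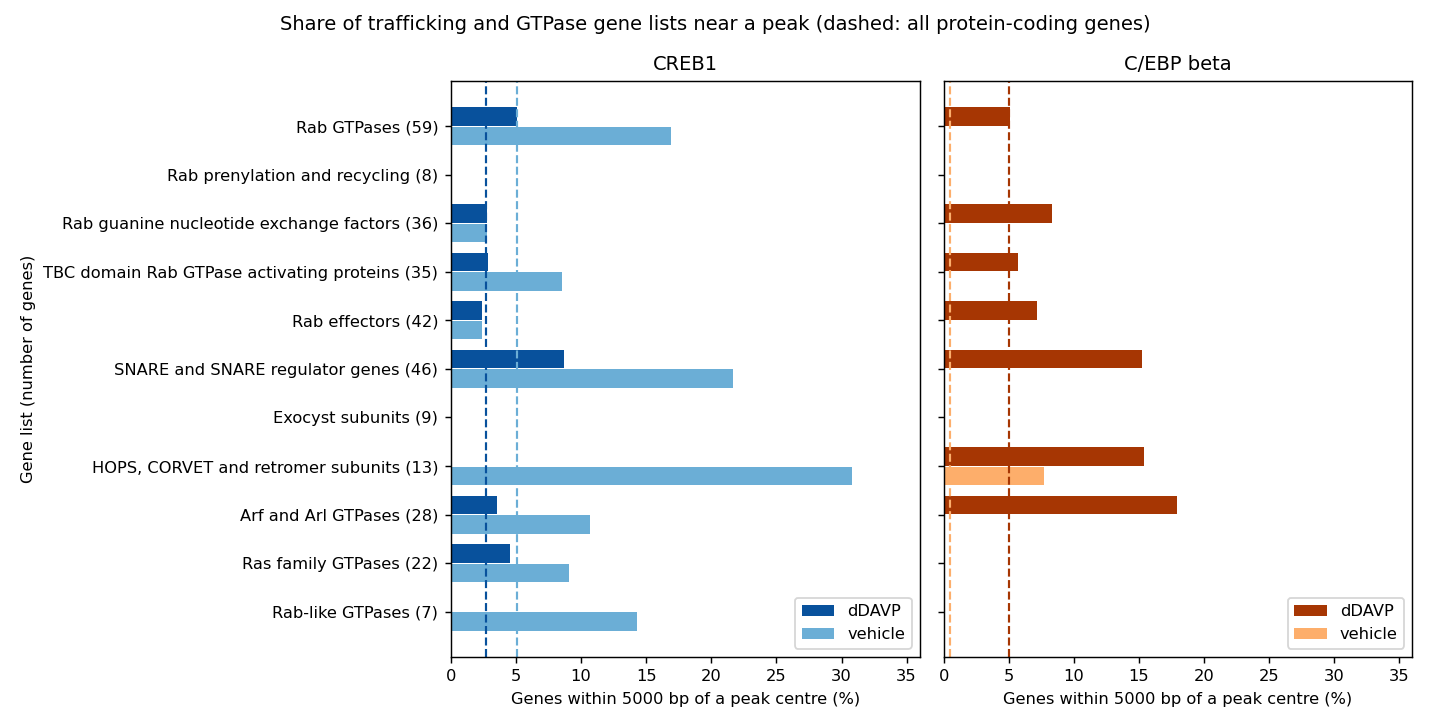
Share of genes (%) within 5000 bp of a peak centre for the Rab family and 10 other gene lists, with dDAVP bars above vehicle bars and the share of all protein-coding genes as a dashed line in the colour of each treatment. For CREB1 after vehicle the Rab family stands at 16.9%, SNARE genes at 21.7% and Arf and Arl GTPases at 10.7%, and for C/EBP beta after dDAVP it stands at 5.08% beside the line at 5.01%.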

How the data were processed

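The authors deposited 4 peak lists, 1 per antibody and treatment, in mm10. BWA, SAMtools, MACS2 and bedtools are named in the submitters' processing notes, without versions or roles, and no source used here states how replicates were combined. In the CREB1 lists the authors deposited positions without scores. The C/EBP beta lists add a score per peak, deposited by the authors with no stated scale, used here to rank peaks within a list; per the names in the deposited lists, these peaks carry a tag of replicate 1, a MACS2 bandwidth of 300, 1 duplicate kept and a q-value limit of 0.01.

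Positions were converted to count from 1. The distance of a gene was that between a peak's centre and the nearer end of a RefSeq protein-coding gene (GRCm38.p6), and strand came from the RefSeq promoter table. Peaks with at least 1 bp of overlap counted as shared. The planned symbols Rab41 and Stx10 matched no gene of the table, and St5, Zfyve20 and Dexras1 were matched through synonyms. Python 3.11.15, pandas 2.3.3, numpy 2.4.6 and matplotlib 3.10.9 were used, and the distance and motif searches were checked on simulated peaks and sequences. Named genes were every Rab gene within 5000 bp of a peak, those between 5000 and 10000 bp, Rab5a, Rab7, Rab11a, Rab11b, Rab3d and Rab18 whatever their values, and up to 4 closest members per other list and peak list; Rab25, Rab5c, Rab10, Rab1b and the neighbours of Rab peaks were named after their values were seen. The members and lists were chosen with earlier results of these data known. The lists hold no replicate values, so no p-value was computed. A further gene list is not reported here.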

Additional observations from a re-analysis of the deposited data

How the results depend on the processing

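No paired analysis was possible because each group had a single deposited list, although vehicle and dDAVP samples of the same antibody share experiment numbers. These numbers run per antibody, and in each treatment an input library is titled for both CREB1 and C/EBP beta. With peaks at least as wide as the list's median, Rab genes near a CREB1 vehicle peak numbered 3 in place of 10, and those near a C/EBP beta dDAVP peak 1 in place of 3. The C/EBP beta dDAVP count was 6 at 10000 bp (10.2%, beside 7.02% of all genes), 15 at 50000 bp (25.4%, beside 18.9%), 5 when a peak anywhere in the gene body counted (8.47%, beside 7.83%) and 1 in the upper 50% of scores. The share of all genes thus also grew with the distance allowed. It is not given here for the limits on width and score, which also shorten the lists. Lists cut to the length of the other treatment's list were chosen after seeing the data. They gave 3 Rab genes for the CREB1 vehicle list (5.08%, beside 2.69% of all genes). For the C/EBP beta dDAVP list they gave 0, beside 0.596% of all genes, so this 0 lies at the background. All other alternatives kept the CREB1 vehicle count at 9 to 15 and the C/EBP beta vehicle count at 0. The CREB1 count after dDAVP was 2 to 4 in its alternatives, and 2 when the gene start or the nearest gene was asked for, since Rab40b then dropped out. Counting from the peak edge or adding Rab-like genes moved no count by more than 1 gene. Depth is unknown, so a missing peak sets no limit on binding.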

Other observations

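The one overlap of a C/EBP beta and a CREB1 peak within 50000 bp of a Rab gene lay outside the limit of 5000 bp. On chromosome 17 a C/EBP beta peak after dDAVP (25861402 to 25861634) overlapped a CREB1 vehicle peak (25861409 to 25861675), with centres 24 bp apart, 20596 bp and 20572 bp past the far end of Rab40c. The start of Wdr90 was 3 bp from the C/EBP beta centre and 27 bp from the CREB1 centre. Rab21, an early endosome Rab, had 2 C/EBP beta peaks after dDAVP within 50000 bp of its far end, at 26482 and 39286 bp, with scores of 88 and 211, and the farther one lay 917 bp from the start of Tbc1d15, a Rab GTPase activating protein gene. Rab10, a Rab of exocytosis, had a CREB1 peak past its far end in both treatments, 11628 bp away after dDAVP and 11608 bp after vehicle, and a second vehicle peak at 12060 bp. These sites were chosen after their values were seen.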
